A study of Mus musculus with 30 samples.

Results

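The genes described here are 10 heat shock proteins and chaperones, out of 30952 genes measured. They were chosen by gene symbol among the protein-coding rows of the deposited annotation, by a rule that reads no measured value: Hspa1a, Hspa1b, Hsp90aa1, Hspb1, Dnajb1 and Hsph1 as stress-induced chaperones, Hspa8 and Hsp90ab1 as constitutive cytosolic chaperones, and Hspa5 and Hsp90b1 as chaperones of the endoplasmic reticulum (ER). The choice was made with earlier results of these data known. All 10 were found, each as 1 row, and none was lost to a filter on low values. In microglia the stress-induced members Hspb1 and Hspa1a were lower in diseased than in naive mice, and in astrocytes Hspb1 was higher in diseased mice, while the constitutive members Hspa8 and Hsp90ab1 were called in no comparison.

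RNA was measured in microglia and astrocytes sorted from the spinal cord of female C57BL/6 mice. Experimental autoimmune encephalomyelitis (EAE), a model of multiple sclerosis, was induced by immunisation with the myelin peptide MOG35-55 at 8 to 10 weeks of age. For this strain the paper states that the peptide was given in complete Freund's adjuvant, along with pertussis toxin. At a clinical score of about 1, mice were gavaged BID (2 times a day) for 3 days. They received the RIPK1 kinase inhibitor GSK'547 at 50 mg/kg (EAE-RIPK1inh) or the vehicle alone, 20% Captisol (EAE-vehicle). There were 4 naive, 6 EAE-vehicle and 5 EAE-RIPK1inh mice, each group sorted for both cell types, which gave 30 libraries from mice with no engineered allele. Microglia were gated as CD11b+ CD45int CX3CR1+ cells and astrocytes as GLAST+ cells without CD11b, CD45 or CD140a, after a dissociation at 4°C for 20 minutes. No naive mouse was immunised or dosed, so EAE, immunisation with its adjuvant and toxin, and vehicle cannot be told apart in a comparison with naive mice.

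Chaperones bind unfolded or partly folded proteins and help them reach or keep their shape. When unfolded protein builds up in the cytosol, the transcription factor HSF1 binds heat shock elements in the promoters of the stress-induced genes and their RNA rises within minutes to hours, while constitutive chaperones such as Hspa8 are made at all times. The ER has its own set, led by the HSP70 protein Hspa5 (BiP) and the HSP90 protein Hsp90b1 (GRP94), which the unfolded protein response raises through ER stress response elements.

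Values are log2 FPKM (fragments scaled to gene length and to the size of the library) as deposited, quantile-normalised so that every library holds the same set of values from 0 to 15.34. The read depth is unknown, and genes with a measured signal numbered 8710 to 20398 in microglia libraries and 6728 to 22981 in astrocyte libraries; below that lie genes in file order, called here "without signal". Over the 8 astrocyte markers the mean level was 8.62 to 9.37 in naive astrocyte libraries and 6.86 to 8.17 in EAE-vehicle ones, and over the 10 microglia markers it was 10.61 to 10.99 in naive microglia and 8.54 to 9.12 in EAE-vehicle microglia. The astrocyte libraries also held oligodendrocyte RNA (7 markers, mean level 6.19 to 7.39 in naive and 6.38 to 9.91 in EAE-vehicle libraries). They held RNA of neuron markers too (6 markers, mean level 4.30 to 5.41 in naive and 5.26 to 6.07 in EAE-vehicle libraries). Microglia libraries held RNA of monocyte and neutrophil markers, whose mean level over 8 genes ranged from 3.37 to 8.34 within the naive group alone. Reads of 3 of the 10 members (Hspa1a, Hspa8 and Hsp90b1) are marked in the annotation as confounded with another locus, as are 15717 of all genes.

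The promoter sequences below are examples of the elements named above, chosen from members that held one. They come from RefSeq (mouse build GRCm38.p6), run 5′ to 3′ on the strand of the gene, and are numbered from the transcription start. Capitals mark a 2-unit heat shock element (GAANNTTC or TTCNNGAA) in the 3 stress-induced genes and an ER stress response element (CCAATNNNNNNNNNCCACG) in the ER genes.
Hspa1a, chr17:34972187-34972286, minus strand, -130 to -31: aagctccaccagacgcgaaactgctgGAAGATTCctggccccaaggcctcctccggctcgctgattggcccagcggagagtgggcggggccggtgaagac
Hspb1, chr5:135887789-135887888, plus strand, -130 to -31: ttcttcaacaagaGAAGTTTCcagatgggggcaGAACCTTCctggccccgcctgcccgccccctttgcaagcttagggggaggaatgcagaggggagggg
Hsph1, chr5:149636352-149636381, minus strand, -45 to -16: tgggtagaatctTTCTCGAAggctcgagaa
Hspa5, chr2:34772020-34772049, plus strand, -70 to -41: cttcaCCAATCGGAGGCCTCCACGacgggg
Hsp90b1, chr10:86705511-86705574, minus strand, -130 to -67: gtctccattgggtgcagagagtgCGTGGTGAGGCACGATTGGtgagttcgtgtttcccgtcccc

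Windows of 300 bases (250 before and 50 after the start) were searched on both strands for 7 of the 10 members; Hspa8, Hsp90aa1 and Hsp90ab1 were not matched. Hspa1a and Hspa1b each held 1 heat shock element at -104, and Hspb1 held 2, at -117 and -97. Hsph1 held 1 at -33 and a 3-unit element (GAANNTTCNNGAA) at +37. Numbered from its other RefSeq start, these stood at -54 and +16. A 2-unit element of either order stood in 15.1% of 32851 windows and the 3-unit element in 0.603%. Dnajb1 had none in either of its windows. The ER stress response element stood in 0.119% of windows, in Hspa5 at -65 and in Hsp90b1 at -212 and -107, there on the opposite strand, so that the printed letters are its reverse complement. A match is a description of the letters, not evidence that a factor bound there.

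Hspa1a (chr17:34969190-34972156) and Hspa1b (chr17:34956436-34959238), both on the minus strand, encode nearly the same inducible HSP70. Their coding sequences were 99.48% identical, with 10 differences, and their promoter windows 98.67%, whereas the sequence after the stop codon was 55.68% identical. How reads of the shared part were divided between both genes is not stated, so the value of either gene alone is uncertain.

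Naive levels ordered the members differently in the cell types. In naive microglia Hspa5 was highest (mean log2 FPKM 9.40), followed by Hspa1a (9.02), Hspa8 (8.69), Hsp90b1 (8.60) and Hsp90ab1 (8.58). The library range of each of these 5 overlapped that of its neighbour in this order. A gap separated these 5 from Hsp90aa1 (6.62), Dnajb1 (6.12), Hspb1 (4.06), Hsph1 (3.86) and Hspa1b (2.88). In naive astrocytes the constitutive Hspa8 (8.16) and Hsp90ab1 (8.07) led, ahead of Hspa5 (7.52) and Hsp90b1 (7.43). The range of each of these 4 overlapped that of its neighbour in this order. Hspa8, at 7.93 or more, lay above every library of Hspa5 and of Hsp90b1, both at 7.92 or less. Hsp90aa1 (6.73) and Hsph1 (4.74) came next, and Hspa1a stood next to last (1.59). The inducible HSP70 was thus at the level of the constitutive one in naive microglia and far under it in naive astrocytes. The panels by library and group show these levels, with microglia of naive mice as the high group for Hspa1a.

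**Figure D1:**
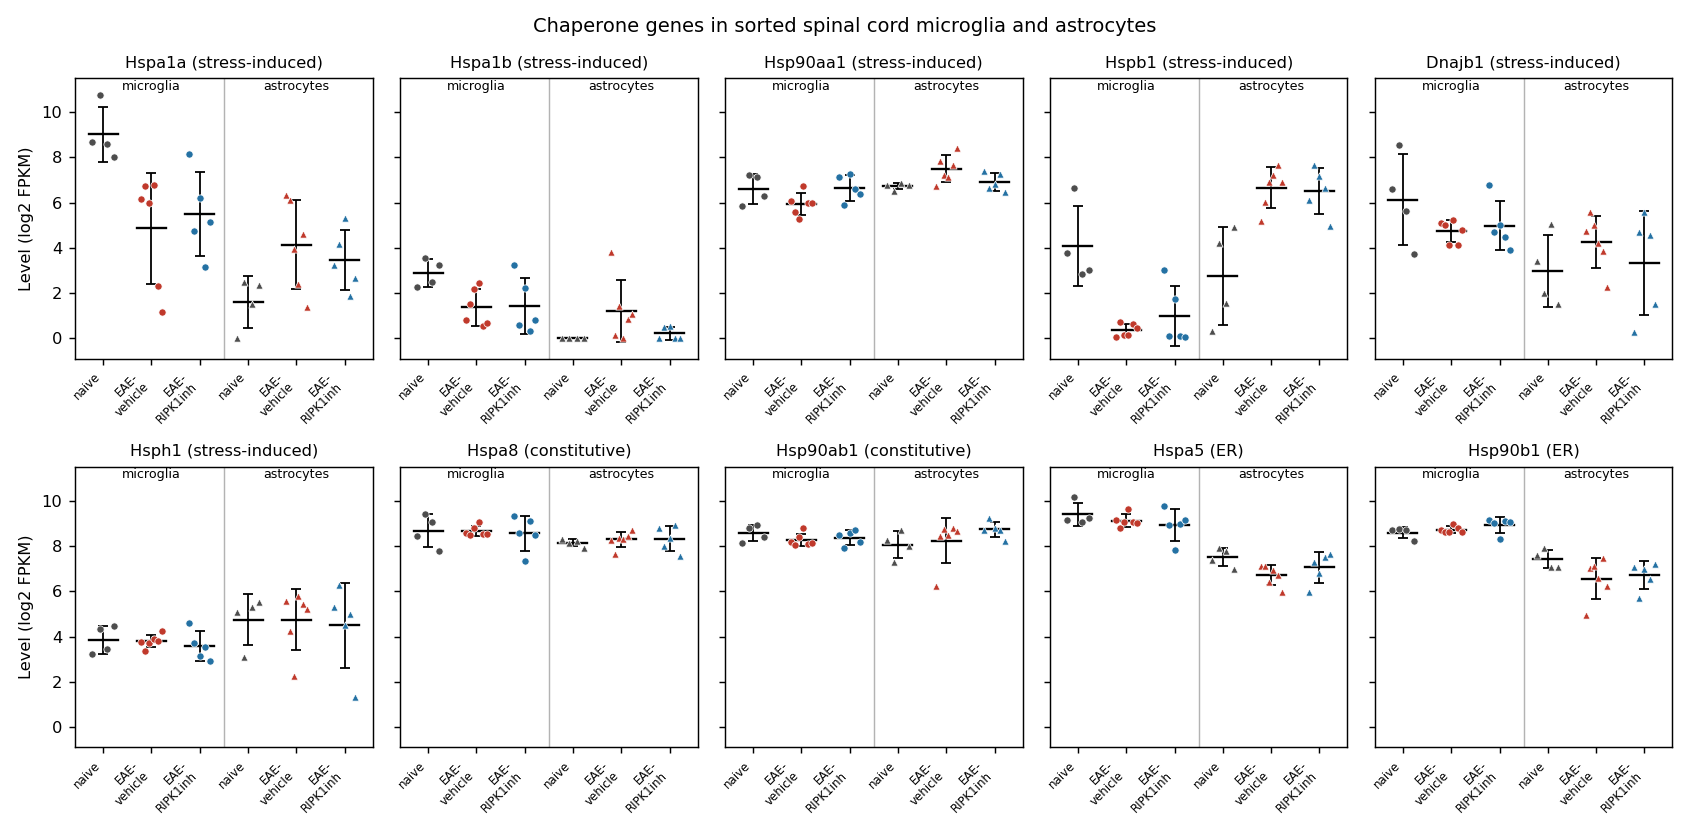
Level of each of the 10 members (y axis, log2 FPKM) in every library, by group on the x axis; each point is 1 library of 1 mouse and the bars give the group mean ± SD. Hspa1a lies between 8.04 and 10.79 in naive microglia and at 2.47 or less in naive astrocytes.

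In microglia, EAE-vehicle mice had lower levels of the small heat shock protein Hspb1 and of Hspa1a than naive mice. Hspb1 fell to near 0 in every EAE-vehicle library, and both genes had no overlap between the groups. By the cutoff used in the study's methods (a fold change over 1.5 and an unadjusted p under 0.05), 3 of 10 members were called, all lower, against 12% of 28958 genes called in either direction and 5.86% called lower. The paper names a paired t test for this cutoff, whereas p here came from unpaired limma fits, so these calls are not the study's own. With Benjamini-Hochberg adjustment over all genes, 1 of 10 passed 0.05, against 3.92% of all genes. The median difference of the 10 members was -0.49 and of the 6 stress-induced ones -1.45 on the log2 scale, beside -0.02 over all genes.

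Hspb1 (chr5:135887919-135889563, plus strand) binds unfolding proteins without using ATP and protects the actin cytoskeleton. Its log2 FPKM in naive microglia was 3.75, 6.65, 2.82 and 3.04, and in EAE-vehicle microglia the lowest, median and highest values were 0.04, 0.31 and 0.71. Naive replicate 2 was far above its group, 3 of the 6 EAE-vehicle libraries were without signal, and the lowest naive library was above the highest EAE-vehicle one. The means were 4.06 ± 1.77 (SD, n = 4) and 0.36 ± 0.28 (SD, n = 6), a difference of -3.71 (SE 0.74, 95% interval -5.28 to -2.13), or 13.1-fold lower on the deposited scale, with an adjusted p of 0.00859 in limma. An exact two-sided permutation test gave p = 0.00476, the smallest that 210 splits allow. Without naive replicate 2 the difference was -2.85 (limma adjusted p = 0.0193).

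Hspa1a read 8.69, 10.79, 8.58 and 8.04 in the naive microglia libraries. In EAE-vehicle microglia its values were 6.16, 6.74, 5.99, 6.77, 2.33 and 1.16. All 6 EAE-vehicle libraries were below all 4 naive ones, and replicates 5 and 6 stood far below the other EAE-vehicle libraries. The difference in means was -4.16 (SE 1.20, 95% interval -6.73 to -1.60), or 17.9-fold lower, from 9.02 ± 1.21 (SD, n = 4) to 4.86 ± 2.46 (SD, n = 6). It was called by the cutoff, with an exact permutation p of 0.00952, but did not pass adjustment over all genes (limma adjusted p = 0.0743). Without naive replicate 2 the difference was -3.58.

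Hspa1b, its near-identical copy, read 2.25, 3.53, 2.47 and 3.25 in naive microglia and 0.54, 1.17 and 2.46 as the lowest, median and highest of EAE-vehicle microglia. The groups overlapped, since the highest EAE-vehicle library was above 1 naive library, and the difference of -1.52 (SE 0.60) was called by the cutoff without passing adjustment (limma adjusted p = 0.235; exact permutation p = 0.0190). The call was lost without naive replicate 2 (-1.30) or naive replicate 4 (-1.39).

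The other stress-induced members were not called in this comparison. Dnajb1 (chr8:83608193-83612653, plus strand), the J-domain protein that hands clients to HSP70, read 6.62, 8.54, 5.62 and 3.72 in naive microglia and 4.14, 4.90 and 5.24 as lowest, median and highest in EAE-vehicle microglia. Its difference was -1.39 with a 95% interval of -2.97 to 0.19, and without naive replicate 4, the lowest naive library, it was -2.19 and called. Hsp90aa1 (chr12:110690605-110702728, minus strand), the inducible cytosolic HSP90, read 5.83, 7.21, 7.12 and 6.31 in naive microglia and 5.29, 5.99 and 6.74 in EAE-vehicle microglia in the same order of lowest, median and highest. The difference was -0.67 (95% interval -1.43 to 0.08), and it was called without naive replicate 1 (-0.94) or EAE-vehicle replicate 4 (-0.83). Hsph1 (chr5:149614287-149636376, minus strand), the HSP110 that renews ATP on HSP70, differed by -0.06 (95% interval -0.80 to 0.67).

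Constitutive and ER members of microglia were close between naive and EAE-vehicle mice. Hspa8 (chr9:40800984-40810087, plus strand), the HSC70 that folds new proteins and uncoats clathrin, read 8.45, 9.43, 9.08 and 7.80 in naive microglia and between 8.49 and 9.06 in EAE-vehicle microglia, a difference of -0.02 (95% interval -0.80 to 0.76). Hsp90ab1 (chr17:45567775-45573271, minus strand), the constitutive HSP90, differed by -0.30 (95% interval -0.75 to 0.15). Hspa5 (chr2:34771970-34777547, plus strand) differed by -0.27 (95% interval -0.95 to 0.41) and Hsp90b1 (chr10:86690209-86705509, minus strand) by 0.13 (95% interval -0.24 to 0.51). None of the 4 was called, and no interval reached below -0.95 or above 0.76.

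In the same comparison 7 of the 10 microglia markers were called lower and 1 higher, and their summed level on the linear scale was 40243 to 43278 in naive and 12356 to 15400.5 in EAE-vehicle libraries. Of the 8 monocyte and neutrophil markers 2 were called higher and none lower, with sums of 291 to 18035 in naive and 380 to 12011 in EAE-vehicle libraries, so the groups overlapped. The 8 astrocyte markers summed to 61.4 to 83.8 in naive and 49.6 to 102 in EAE-vehicle microglia, with 1 of 8 called higher, namely Aldh1l1, at a log2 level of 0.72 or less in naive and 1.55 to 3.93 in EAE-vehicle libraries. The highest of the 8 was Slc1a3, at 5.07 to 6.32, and Gjb6 and Sox9 were at a median of 0 in both groups. The 7 oligodendrocyte markers summed to 28.4 to 59.1 and 42.1 to 116, with 1 of 7 called higher. The part of these markers in the fall of Hspb1 and Hspa1a was not tested, and in RNA of sorted pools fewer cells of a type and less RNA per cell cannot be told apart.

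In astrocytes the largest difference had the opposite sign: Hspb1 was higher in EAE-vehicle than in naive mice, at a level that put it among the 5 highest members. Hspa1a and Hsp90aa1 were also called higher, and Hspa5 was called lower. By the cutoff 4 of 10 members were called (3 higher, 1 lower), against 6.71% of 30718 genes in either direction and 2.69% called higher. With adjustment 1 of 10 passed, against 0.579% of all genes. The median difference of the members was 0.47 and that of the stress-induced members 1.24, beside 0.03 over all genes.

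Hspb1 in naive astrocytes varied widely, at 0.31, 4.22, 1.56 and 4.94 log2 FPKM. In EAE-vehicle astrocytes it read 5.17, 6.04, 6.92, 7.24, 7.68 and 6.93, all above the highest naive library. The difference was 3.91 (SE 0.83, 95% interval 2.13 to 5.68), or 15-fold higher, from 2.76 ± 2.18 (SD, n = 4) to 6.66 ± 0.91 (SD, n = 6), with a limma adjusted p of 0.0495 and an exact permutation p of 0.00476. The call by the cutoff held in every alternative, while the adjusted p lay close to its threshold and ranged from 0.00129 to 0.195 over the alternatives. It was 0.168 without naive replicate 1 (difference 3.09) and 0.195 without naive replicate 3. It was also over 0.05 without EAE-vehicle replicate 2, 3, 4, 5 or 6.

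Hspa1a read 0 (without signal), 2.47, 1.53 and 2.37 in naive astrocytes. The EAE-vehicle astrocytes read 6.32, 6.11, 3.95, 2.41, 4.63 and 1.39, so replicates 4 and 6 lay within the naive range and the other 4 above it. The difference of 2.54 (SE 0.98, 95% interval 0.45 to 4.63) was called by the cutoff, with a limma adjusted p of 0.501 and an exact permutation p of 0.0762, and the call was lost without naive replicate 1 (2.01). Hspa1b was without signal in all 4 naive astrocyte libraries and read 3.81, 0.15, 1.40, 0 (without signal), 0.83 and 1.05 in EAE-vehicle astrocytes, so no fold is given. Hspa1b was not called over all libraries, but was when EAE-vehicle replicate 1, 2 or 4 was left out.

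Hsp90aa1 was 6.77, 6.53, 6.85 and 6.78 in naive astrocytes, a narrow range. In EAE-vehicle astrocytes the lowest, median and highest values were 6.72, 7.45 and 8.40, with 1 of 6 libraries inside the naive range. The difference of 0.77 (SE 0.32, 95% interval 0.08 to 1.46) had a limma adjusted p of 0.592 and an exact permutation p of 0.0524, and the call was lost without naive replicate 2 or 4 or without EAE-vehicle replicate 2, 5 or 6. Dnajb1 differed by 1.28 (95% interval -0.95 to 3.50) and Hsph1 by 0.01 (95% interval -1.93 to 1.96), intervals too wide to set a change apart from none.

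The ER members of astrocytes read lower in EAE-vehicle mice. Hspa5 was 7.39, 7.92, 7.77 and 6.99 in naive astrocytes and 7.11, 7.10, 6.42, 6.94, 6.74 and 5.96 in EAE-vehicle astrocytes, which overlap only at the lowest naive library. Its difference was -0.81 (SE 0.36, 95% interval -1.58 to -0.03), with a limma adjusted p of 0.672 and an exact permutation p of 0.0238. The call of Hspa5 was lost without any one of naive replicates 1, 2 and 3 and of EAE-vehicle replicates 3, 5 and 6, and also when libraries were centred on their median (-0.69). Hsp90b1 differed by -0.86 (95% interval -1.84 to 0.11) and was called without EAE-vehicle replicate 5 (-1.05). The constitutive Hspa8 differed by 0.14 (95% interval -0.45 to 0.73) and Hsp90ab1 by 0.17 (95% interval -0.78 to 1.12), the latter with EAE-vehicle replicate 1 at 6.24 and the other 5 libraries between 8.47 and 8.83.

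Markers of other cells moved in the same astrocyte libraries. Of 7 oligodendrocyte markers 4 were called higher in EAE-vehicle astrocytes (summed level 4998 to 18272 in naive and 7679 to 54408.5 in EAE-vehicle libraries), as were 5 of 8 monocyte and neutrophil markers (1.03 to 21.5 and 76.5 to 541), 4 of 6 T cell markers (0.977 to 11.2 and 8.49 to 479.6) and 3 of 10 microglia markers (47.9 to 104 and 58.0 to 382). The astrocyte markers went down in 5 of 8 cases, with sums of 12008 to 25929 and 4193 to 8817. Of 6 neuron markers 1 was called higher and 0 lower, with sums of 544 to 707 in naive and 662 to 988 in EAE-vehicle libraries. None of 6 endothelial and none of 5 erythrocyte markers was called. Their part in the higher Hspb1, Hspa1a and Hsp90aa1 and in the lower Hspa5 was not tested.

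Whether the EAE difference itself differed between the cell types was tested as an interaction over all 30 libraries. Both cell types came from the same mice, and this fit treats their libraries as separate. Hspb1 fell in microglia and rose in astrocytes, and the difference between both changes was -7.61 (SE 1.14, 95% interval -9.95 to -5.28; limma adjusted p = 4.16e-04), with an adjusted p of 0.00178 or less in each alternative run. For Hspa1a it was -6.71 (SE 1.58, 95% interval -9.94 to -3.47; limma adjusted p = 0.0319), and leaving out single libraries moved that adjusted p between 0.0168 and 0.0817, the highest without naive microglia replicate 2, and library quality weights gave 0.151. These were the 2 of 10 members that passed, against 0.982% of all genes. Hspa1b (-2.73, adjusted p = 0.152), Hsp90aa1 (-1.44, adjusted p = 0.196) and Dnajb1 (-2.67, adjusted p = 0.554) did not pass adjustment in limma, and the other 5 members differed by 1.00 or less in either direction. The plot of differences sets both cell types side by side.

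**Figure D2:**
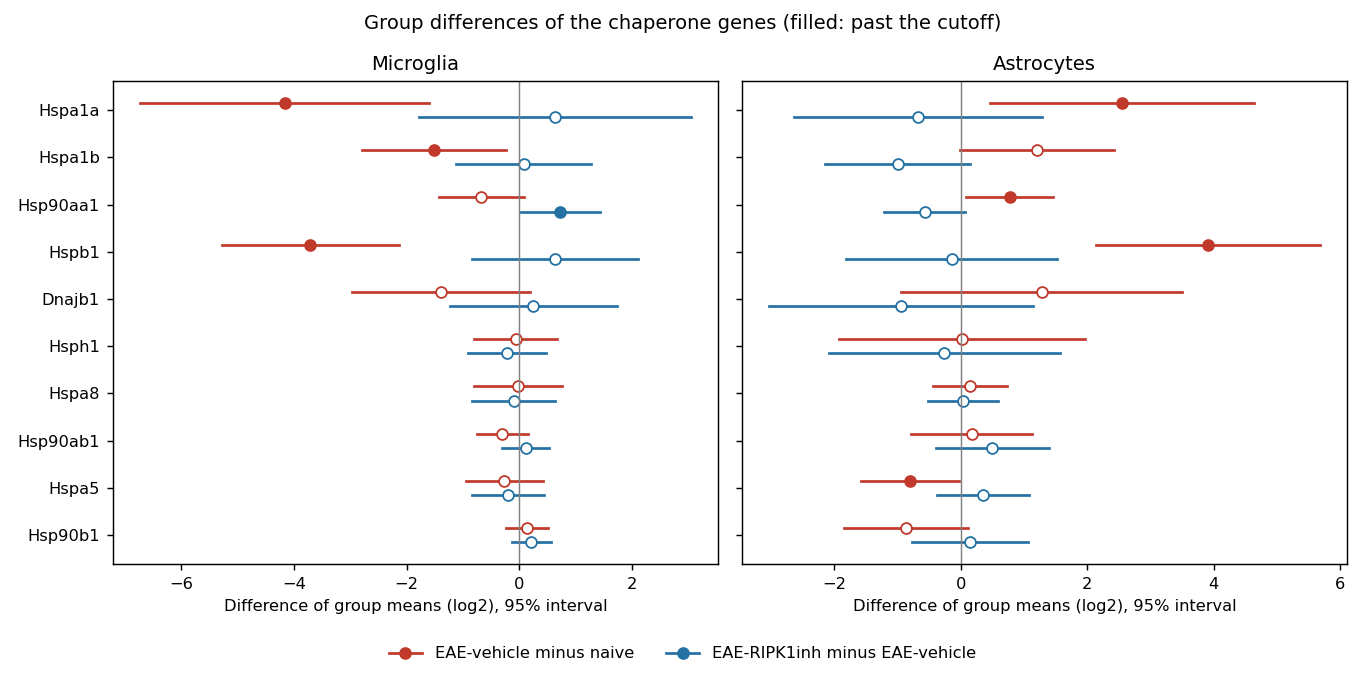
Difference in mean log2 FPKM (x axis) for each member, EAE-vehicle minus naive and EAE-RIPK1inh minus EAE-vehicle, in microglia and astrocytes; bars are 95% intervals from limma and filled points passed the cutoff. Hspb1 lies at -3.71 in microglia and 3.91 in astrocytes for EAE, while 1 member is filled for the inhibitor.

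The balance of stress-induced over constitutive chaperones within a library moved in the same directions. It includes Hspb1 and Hspa1a themselves, so in part it restates their differences, while Dnajb1 and Hsph1 were called for EAE in neither cell type. The mean level of the 6 stress-induced members minus that of Hspa8 and Hsp90ab1 was -3.21 ± 0.72 (SD, n = 4) in naive microglia and -4.97 ± 0.41 (SD, n = 6) in EAE-vehicle microglia, where the ranges (-4.01 to -2.26 and -5.45 to -4.46) did not overlap. In astrocytes it was -4.98 ± 0.55 (SD, n = 4) in naive and -3.51 ± 0.94 (SD, n = 6) in EAE-vehicle mice, with ranges of -5.71 to -4.45 and -4.49 to -1.86. The EAE-RIPK1inh means were -4.62 ± 1.03 (SD, n = 5) in microglia and -4.38 ± 0.74 (SD, n = 5) in astrocytes. The ER members minus the same 2 genes gave 0.37 ± 0.37 (SD, n = 4) and 0.46 ± 0.13 (SD, n = 6) in naive and EAE-vehicle microglia, against -0.64 ± 0.57 (SD, n = 4) and -1.63 ± 0.56 (SD, n = 6) in astrocytes. These sums over the members are a description and were not tested.

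**Figure D3:**
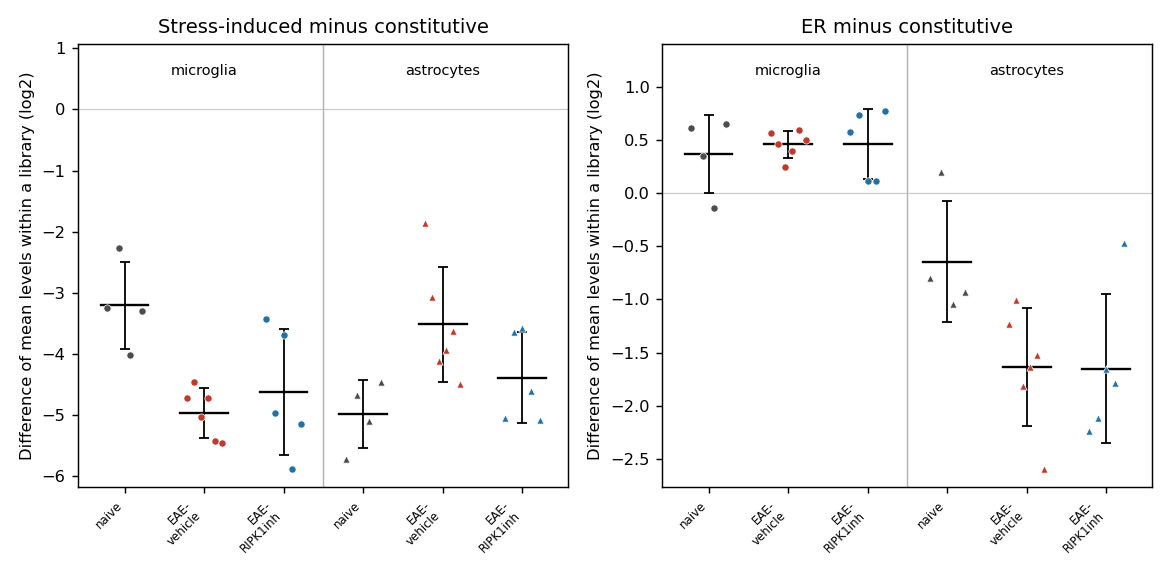
Mean log2 FPKM of the 6 stress-induced members (left) and of the 2 ER members (right) minus that of the 2 constitutive members (y axis) in each library, by group, with mean ± SD. Naive microglia lie above EAE-vehicle microglia on the left, and the astrocyte means on the right (-0.64 in naive and -1.63 in EAE-vehicle mice) lie below the microglia means (0.37 and 0.46).

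The ER chaperones set microglia apart from astrocytes in every treatment group. In naive mice Hspa5 was 9.14, 10.16, 9.05 and 9.26 in microglia and 7.39, 7.92, 7.77 and 6.99 in astrocytes, with no overlap. The microglia minus astrocyte difference was 1.89 (SE 0.37; limma adjusted p = 4.83e-04) in naive, 2.42 (SE 0.30; adjusted p = 6.46e-07) in EAE-vehicle and 1.88 (SE 0.33; adjusted p = 1.32e-04) in EAE-RIPK1inh mice. For Hsp90b1 it was 1.17 (SE 0.38; limma adjusted p = 0.0408), 2.17 (SE 0.31; adjusted p = 5.88e-06) and 2.24 (SE 0.34; adjusted p = 1.66e-05), again without overlap in any group. All libraries were normalised to the same distribution, so these are differences in place within a library, and centring libraries on their medians would shift every gene by -0.11, -0.30 and -0.25 in the 3 comparisons.

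The stress-induced members differed between the cell types in a way that depended on the group. In naive mice Hspa1a was higher in microglia by 7.43 (SE 1.22, limma adjusted p = 4.92e-05). An exact permutation test gave p = 0.0286, the smallest for 4 against 4 libraries, and ignored that these came from the same 4 mice. Dnajb1 was higher by 3.13 (SE 1.01, limma adjusted p = 0.0407) with overlapping ranges. Hspa1b, without signal in naive astrocytes, was also called. In EAE-vehicle mice Hspa1a differed by 0.72 (95% interval -1.32 to 2.77), whereas Hspb1 and Hsp90aa1 were lower in microglia, with differences of -6.31 (SE 0.72; limma adjusted p = 1.34e-07) and -1.56 (SE 0.30; adjusted p = 4.55e-04). In EAE-RIPK1inh mice Hspb1 differed by -5.53 (SE 0.79; limma adjusted p = 6.60e-06), and Hspa1b was higher in microglia by 1.23 (SE 0.59), called by the cutoff without passing adjustment (adjusted p = 0.211). The calls came to 5, 4 and 4 of 10 members, against 19.7%, 22.4% and 21.7% of all genes, and with adjustment to 5, 4 and 3, against 11.9%, 13.8% and 13%. Both cell types came from the same 15 mice, but the replicate numbers do not state which libraries share a mouse, and the fit treats all libraries as separate.

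Few of these genes were called for the inhibitor. In microglia 1 of 10 members was called between EAE-RIPK1inh and EAE-vehicle mice, against 1.76% of all genes, and in astrocytes 0 of 10, against 3.02%. No member passed adjustment in either cell type. Over all genes limma called 1 gene in microglia and 0 in astrocytes after adjustment, the latter with 998 genes at an unadjusted p under 0.05.

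The member called in microglia was Hsp90aa1. It read 7.14, 5.89, 7.28, 6.62 and 6.37 in EAE-RIPK1inh microglia, against 6.09, 5.57, 5.29, 6.74, 5.99 and 5.98 in EAE-vehicle microglia. The ranges overlapped, and 4 of 5 inhibitor libraries were above the EAE-vehicle mean. The difference was 0.72 (SE 0.33, 95% interval 0.01 to 1.43; limma adjusted p = 0.930; exact permutation p = 0.0584). The call was lost without any one of EAE-vehicle replicates 1, 2, 3, 5 and 6 or of EAE-RIPK1inh replicates 1, 3 and 4. In astrocytes Hsp90aa1 read 7.41, 6.65, 6.83, 7.27 and 6.47 under the inhibitor, a difference of -0.58 (95% interval -1.22 to 0.07), and the inhibitor difference in microglia minus that in astrocytes was 1.29 (SE 0.45), with an adjusted p of 0.948.

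The stress-induced genes that differed with EAE varied widely between mice under the inhibitor. Hspa1a was 8.17, 4.77, 6.22, 3.17 and 5.13 in EAE-RIPK1inh microglia, where replicate 1 reached the naive range, and its difference from EAE-vehicle was 0.63 (95% interval -1.78 to 3.04). Hspb1 was 3.00, 0.09, 1.72, 0.08 and 0.07 in the same libraries, with 3 of 5 without signal, and differed by 0.64 (95% interval -0.84 to 2.11). In astrocytes Hspb1 read 6.13, 7.66, 7.18, 6.64 and 4.97, a difference of -0.15 (95% interval -1.81 to 1.52), and Hspa1a 3.25, 4.17, 5.32, 1.86 and 2.67, a difference of -0.68 (95% interval -2.64 to 1.28). All 4 intervals include 0, and each reaches a difference of over 1.5 in at least 1 direction. For Hspa8, Hsp90ab1, Hspa5 and Hsp90b1 they were narrower in microglia, between -0.84 and 0.63, and reached from -0.77 to 1.39 in astrocytes.

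Set against naive mice, EAE-RIPK1inh microglia had 3 of 10 members called, all lower, against 10.1% of all genes. These were Hspb1 (-3.07, SE 0.76; limma adjusted p = 0.0468; exact permutation p = 0.0238), Hspa1a (-3.53, SE 1.24; adjusted p = 0.211) and Hspa1b (-1.44, SE 0.62; adjusted p = 0.346), all with overlapping ranges. In astrocytes 1 of 10 was called, against 4.63% of all genes, namely Hspb1 at 3.76 (SE 0.86; limma adjusted p = 0.191; exact permutation p = 0.00794), with all 5 EAE-RIPK1inh libraries above all 4 naive ones. These comparisons share the naive mice with the EAE-vehicle comparisons and are no separate evidence.

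The other chaperone genes are given by list, to be read against the 12% of all genes that were called in microglia for EAE. Of 15 regulators and partners of the heat shock response in microglia, 1 was called higher and 1 lower, a share near that of all genes. The one that passed adjustment was Cryab, the small heat shock protein alphaB-crystallin, which rose by 3.44 (SE 0.43, limma adjusted p = 2.35e-04) where Hspb1 fell. Reads of Cryab are marked as confounded with another locus, as are those of many genes named below. Among these are Dnajc7, Hspe1, Eif2ak3, Pdia3, Dnajb11, Jun, Junb, Dusp1 and Dnajb9. The microglia minus astrocyte difference of Cryab was -8.32 in naive mice. The part of RNA from other cells in its rise was not tested. Hsf1 itself, the heat shock transcription factor, differed by -0.67 in microglia (SE 0.33; adjusted p = 0.403) and by -0.39 in astrocytes (SE 1.06). Of 17 HSP70 and HSP90 co-chaperones in microglia 4 were called higher and 4 lower. Hspa4, an HSP110 exchange factor, rose by 1.34 (limma adjusted p = 0.00793), and Dnajc7, a co-chaperone that binds both HSP70 and HSP90, fell by 1.67 (adjusted p = 0.00270). Of 6 mitochondrial chaperones 2 were called higher, among them Hspe1, the lid of the mitochondrial chaperonin, at 1.25 (adjusted p = 0.0392). Of 7 measured subunits of the cytosolic chaperonin CCT 1 was called higher, again near the share of all genes.

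Among 21 ER chaperones and unfolded protein response genes, 3 were called lower and 0 higher in EAE-vehicle microglia (median -0.08; 12% of all genes were called), and 6 lower and 0 higher in EAE-vehicle astrocytes (median -0.28; 6.71% of all genes), with 0 passing limma's adjustment in either. This list was higher in microglia than in astrocytes, as Hspa5 and Hsp90b1 were: 10 called higher and 1 lower in naive mice (median 1.59; 19.7% of all genes were called), and 14 higher and 0 lower both in EAE-vehicle (median 1.61; 22.4%) and in EAE-RIPK1inh mice (median 1.94; 21.7%). The genes with the smallest adjusted p in naive mice were Xbp1, a transcription factor of the unfolded protein response (3.02), its sensor kinase Eif2ak3 (2.59), the disulfide isomerase Pdia3 (1.85) and the Hspa5 partner Dnajb11 (1.97). In astrocytes the lists other than the immediate early genes gave 0 genes past adjustment for EAE; by the cutoff 3 co-chaperones, 2 CCT subunits, 2 heat shock partners and 1 mitochondrial chaperone were called higher, and 1 heat shock partner lower. Under the inhibitor 0 genes of any list passed adjustment. Of the 66 chaperone genes of the lists and the 15 immediate early genes together, 4 met the cutoff in microglia, against 1.76% of all genes. In astrocytes 3 met it, against 3.02%, a share near that of all genes.

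**Figure D4:**
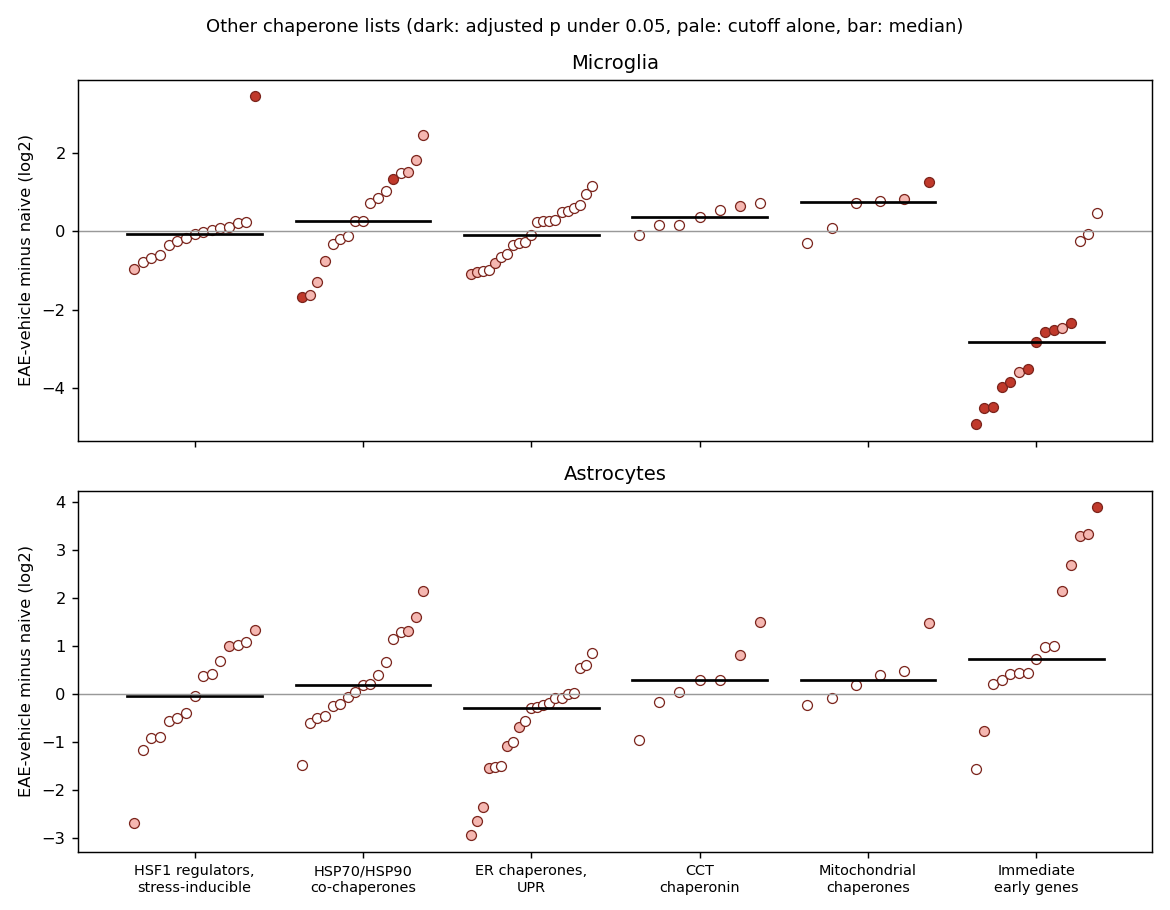
Difference in mean log2 FPKM, EAE-vehicle minus naive (y axis), for every gene of 6 lists in microglia and astrocytes; dark points had an adjusted p under 0.05, pale points passed the cutoff alone, and the bar is the list's median. The immediate early genes lie lowest in microglia, with a median of -2.82.

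Immediate early genes, which are switched on within minutes of a stimulus and are known to rise in cells during tissue dissociation, were also lower in EAE-vehicle microglia, where Hspa1a, Hspa1b and Hspb1 were called. Of 15 such genes 12 were called lower in EAE-vehicle than in naive microglia, 10 of them past adjustment, with a median of -2.82, against 12% of all genes called in either direction. Jun (-4.50, SE 0.62; limma adjusted p = 5.47e-04), Btg2 (-3.83), Klf4 (-3.96) and Egr1 (-4.47) had the smallest adjusted p. In EAE-vehicle astrocytes 5 of 15 were called higher and 1 lower than in naive ones, against 6.71% of all genes called in either direction. Junb rose there by 3.90 (SE 0.79, limma adjusted p = 0.0391). In naive mice 14 of 15 were called higher in microglia than in astrocytes, against 19.7% of all genes called in either direction. The mean level of the 15 genes per library was 5.03, 7.24, 5.47 and 5.25 in naive microglia and between 2.26 and 3.50 in EAE-vehicle microglia. Naive replicate 2, highest in this list, was also the highest naive microglia library in Hspa1a, Hspb1 and Dnajb1, and EAE-RIPK1inh replicate 1, at 4.68, was the highest of its group in all of them. Naive replicate 2 was not high in stress-induced genes alone: it was also highest of its group in the mean of the constitutive members (9.11) and of the ER members (9.46). EAE-RIPK1inh replicate 1 was highest of its group in the ER mean (9.49) but not in the constitutive mean. In astrocytes the mean was 0.94 to 1.75 in naive and 1.55 to 2.99 in EAE-vehicle libraries. The part of these genes in the differences of Hspa1a and Hspb1 was not tested.

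**Figure D5:**
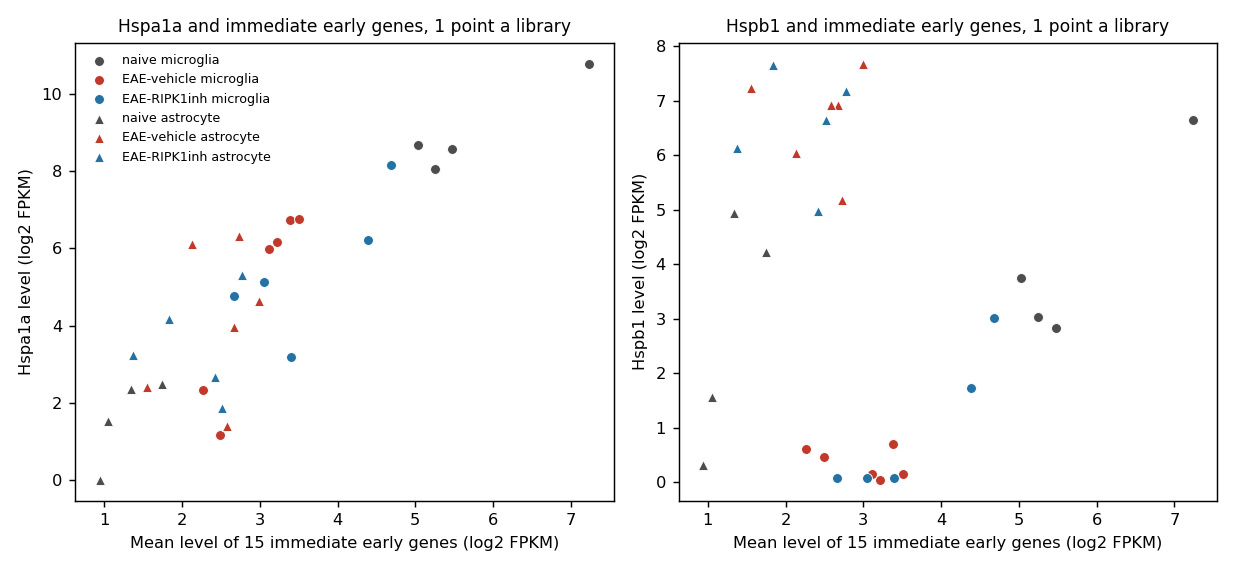
Level of Hspa1a and of Hspb1 (y axis, log2 FPKM) against the mean level of 15 immediate early genes (x axis, log2 FPKM), 1 point a library, coloured by group. Naive microglia lie at the upper right for Hspa1a, with an immediate early mean of 5.03 or more.

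The genes whose levels varied most like a member within the groups were sought by the correlation of deviations from the group means over the 15 libraries of a cell type, among 5692 other genes in microglia and 4705 in astrocytes. In microglia the closest to Hspa1a were Dusp1 (r = 0.914, rho = 0.868), Fos (r = 0.851) and Arhgap5 (r = 0.851), and the first 2 are immediate early genes of the list above. The closest to Hspa5 was Dnajb9, an ER co-chaperone (r = 0.882, rho = 0.754), followed by Il1a (0.856) and Sgk3 (0.844). For Hspa8 they were Mtif3 (0.871), Mrps22 (0.867) and Arrdc4 (0.865). Among the members themselves in microglia, Hspa8 varied with Hsp90b1 (r = 0.875) and with Hspa5 (0.790), and Hspa1a with Hspa1b (0.762).

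In astrocytes the closest to Hspa1a were, in falling order of r, Exd2, Nsd3 and Itfg2 (r of 0.759 or more), to Hspa8 Ndufaf7 (r = 0.883), Fbxo22 (0.840) and Srpk1 (0.839), and to Hspa5 the small heat shock protein gene Hspb6 (r = 0.885), Mlx (0.881) and Ncor1 (0.872). None of these was among the closest to the same member in microglia. All points share their libraries, and the highest of so many correlations is high by the search itself, so these values describe the libraries and were not tested.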

How the data were processed

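RNA of 30 libraries was analysed, 15 of microglia and 15 of astrocytes, grouped by the titles in the labels. The deposited values are log2 FPKM, which the authors computed from the reads, restricted to genes by a filter on FPKM of at least 1 and quantile-normalised across all libraries; the aligner and the offset added before the logarithm are not given in the sources used here. The deposited files hold no counts, so depth is unknown and no counting interval is given. Each cell type was fitted on its own with limma 3.58.1 (lmFit, eBayes with a trend, no covariate) in R 4.3.3 over its 3 groups, and cell types were compared in 1 fit of 6 groups. Genes were called at a fold over 1.5 and p under 0.05, and Benjamini-Hochberg adjustment ran over all genes. Members also had exact two-sided permutation tests. The fits were tested on simulated data. Within a cell type p-values measure the spread between mice, while fits across cell types treat libraries of the same mice as separate. All members, and from each other list the up to 4 genes with the smallest adjusted p under 0.05 and Hsf1, were named. The members and lists were chosen with earlier results of these data known. Alternatives left out each library and changed the offset, filter, centring, weights, trend and block. Promoters, read with Python 3.11.15 and Biopython 1.88, are RefSeq, and gene positions matched GENCODE vM21 for 10 of 10 members. Figures used matplotlib 3.10.9.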

Additional observations from a re-analysis of the deposited data

Results flagged for a closer look

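In 60 groups of 4 to 6 libraries (10 members in 6 groups), 5 held 1 library whose gap to its nearest neighbour took an unusually large share of the group's range; chance gives about 1 in 20. Hspa1b in EAE-vehicle astrocyte replicate 1 was 3.81 against 1.40 or less in the other 5, and Hspa1b in naive astrocyte replicate 2 was 0.0079 in a group without signal throughout, so that value has no meaning. Hsp90ab1 in EAE-vehicle astrocyte replicate 1 was 6.24, with the other 5 at 8.47 or more. Hsp90b1 was 8.24 in naive microglia replicate 4 and 8.33 in EAE-RIPK1inh microglia replicate 3, each the lowest of its group. The fewest genes with a signal of all 30 libraries were in EAE-vehicle astrocyte replicate 1 (6728), naive microglia replicate 4 (8710) and naive astrocyte replicate 2 (8815). In the first of these, values without signal reached 2.74. EAE-RIPK1inh microglia replicate 3 had 14791 such genes. The part of library quality in these flagged values was not tested.

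Of 20 tests of whether a difference differed between the cell types, 5 had an unadjusted p under 0.05 in limma. The EAE differences were more negative in microglia than in astrocytes for 4 members: Hspa1a by -6.71, Hspb1 by -7.61, Hspa1b by -2.73 and Hsp90aa1 by -1.44, and the first 2 passed adjustment over all genes. The inhibitor difference of Hsp90aa1 was higher in microglia by 1.29 and did not pass.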

How the results depend on the processing

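No recomputed value reversed a call: 2172 kept their side of it, 50 calls were lost and 45 gained. The 4 members called for EAE in astrocytes became 2 when genes with a mean below 1 were left out and 2 with the replicate number as a block, and 2 to 5 when 1 library was left out. The single member called for the inhibitor in microglia became 0 with the replicate block and 0 to 1 on leaving out a library, the 0 in astrocytes became 0 to 1, and the 1 member called between EAE-RIPK1inh and naive astrocytes became 2 when only those 2 groups were fitted. Hspb1 and Hspa1a stayed called for EAE in microglia in every alternative, at -4.12 to -2.85 and -6.22 to -2.97, with limma adjusted p of 6.97e-04 to 0.0779 and 0.00667 to 0.243.

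Deviations from group means correlated at -0.16 to 0.24 between same-numbered libraries of different treatment groups, which come from different mice. Across cell types, where such libraries may share a mouse, the correlations were -0.04 to 0.09 in naive and -0.01 to 0.13 in EAE-vehicle mice. In EAE-RIPK1inh mice they were 0.002 to 0.05. In these groups 1 of 4, 3 of 6 and 3 of 5 correlated best with their own number. These values do not settle whether a number marks a mouse, and the numbers were not taken as pairs. Over all genes, library quality weights raised the calls from 511 to 2730 for the inhibitor in microglia, from 2060 to 3698 for EAE in astrocytes and from 1421 to 3152 for EAE-RIPK1inh against naive astrocytes. Centring libraries on their medians moved the share called higher for EAE in astrocytes from 40.1% to 51.2%, for EAE-RIPK1inh against naive astrocytes from 42.9% to 53.7%, and for microglia against astrocytes from 55.3% to 31.0% in EAE-vehicle and from 53.9% to 33.9% in EAE-RIPK1inh mice. Weights moved it from 60.8% to 49.3% for the inhibitor in astrocytes. The cause of these shifts was not tested. The unknown offset and depth limit values near 0, where Hspb1 in EAE microglia and Hspa1b in astrocytes lie, and 4 to 6 mice a group leave intervals of several-fold for Hspa1a.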
